A study of Homo sapiens with 15 samples.

Results

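The 10 genes described here carry out or regulate the oxidation of fatty acids: CPT1A and CPT1B of the carnitine shuttle, ACADM, ACADVL, HADHA and HADHB of mitochondrial beta-oxidation, FABP3 and CD36 of fatty acid binding and uptake, and the regulators PPARA and PPARGC1A. They were taken by name from the 48777 genes of the deposited count table through their Ensembl identifiers and GENCODE v44 symbols, and each of the 10 symbols matched 1 row. The rule uses no measured value, but the genes were chosen with earlier results of these data known. H1, an established human embryonic stem cell line, was differentiated on the laminins LN-521 and LN-221 and sampled on days 0, 4, 9, 11 and 20, with 3 biological replicates per day and 15 bulk RNA-seq libraries in all. Cells were kept in Nutristem medium on day 0, then exposed to CHIR99021, an activator of Wnt signalling, and later to IWP2, an inhibitor of Wnt secretion, in basal medium with B27 lacking insulin. The methods of the paper place CHIR99021 on day 4 and IWP2 on day 7. Whether the day 4 samples were taken before CHIR99021 is not stated there. By a description of the submitters the medium held B27 with insulin from day 11. The paper's methods instead have the medium without insulin added on day 11. The day on which CHIR99021 was added differs between 2 descriptions by the submitters, the deposited sample table lists LN-521 alone for day 0, and no genetic change or untreated differentiation control was part of the comparison. All libraries come from this single line, so the replicates measure the spread between cultures of it.

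Long-chain fatty acids enter cells with the help of CD36, are carried in the cytosol by binding proteins such as FABP3, and are activated to acyl-CoA. CPT1 on the outer mitochondrial membrane links them to carnitine for import, and acyl-CoA dehydrogenases (ACADVL for very long chains, ACADM for medium chains) and the trifunctional protein of HADHA and HADHB then shorten them in repeated cycles. The adult heart draws most of its energy from this pathway, whereas pluripotent cells and early cardiac cells rely largely on glycolysis, and PPARA with its coactivator PGC-1alpha (PPARGC1A) is known to switch on many of these genes.

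Libraries held 11990302 to 33469703 counted reads. Levels are given as RPKM (TMM-scaled CPM per kilobase of the gene length implied by the deposited counts and TPM), a scale on which genes can be compared with each other. Changes are log2 fold changes with their standard error (SE), tested in edgeR by quasi-likelihood between the 3 libraries of one day and the 3 of another, with p adjusted over all genes tested. The labels matched their markers: the summed level of 5 pluripotency genes was 1386 to 1593 RPKM on day 0, 1254 to 1702 RPKM on day 4 and 10.6 to 27.0 RPKM on day 20, and that of 6 cardiomyocyte genes 3.86 to 5.08 RPKM on day 0, 60.7 to 320.4 RPKM on day 9, 1010 to 5257 RPKM on day 11 and 1308 to 5700 RPKM on day 20. Markers of other cells were present as well, since 8 genes of hepatic or yolk sac endoderm summed to 163.8 to 6486 RPKM and 5 mesenchymal genes to 200.2 to 5724 RPKM on day 20. The day 20 library labelled 2_3 stood apart, with an RNA integrity number of 6.1 (8.8 to 10.0 in the others) and reads on all 175 autosomal protein-coding genes (2 kb or longer) that had at most 2 counts in total over the 12 libraries of days 0 to 11, at a median of 11.0 reads per kb. The day 20 library 6_1 had reads on 133 of these genes, at a median of 0.679 reads per kb, and day 20 replicate 2 on 33 of them. The 12 libraries of days 0 to 11 had reads on 1 to 44 of them, numbers that the choice of these genes keeps low. Whether the day 20 reads on these genes are background or expression was not tested. In bulk samples, fewer cells of a type and less RNA per cell cannot be told apart.

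Over the whole course, 7 of the 10 genes were higher on day 20 than on day 0 and none was lower at an adjusted p under 0.05, where 27.4% of all 21988 genes tested passed in either direction. PPARGC1A (22.9-fold), CD36 (16.8-fold), FABP3 (11.4-fold), CPT1A (6.36-fold) and PPARA (4.60-fold) rose more than HADHB (2.78-fold) and ACADVL (2.5-fold), while ACADM, HADHA and CPT1B did not pass the test. Day 0 and day 20 replicates occupied separate ranges for 8 of the 10 genes (the 7 that rose, and CPT1B with lower values on day 20), against 46.6% of all genes tested. The median log2 fold change of the 10 genes was 1.84, against 0.11 over all genes tested. The same 7 genes passed a test for any difference among the 5 days, as did 50.4% of all 24767 genes in that test. The gene count for day 20 against day 0 fell to 4 without day 0 replicate 1 or without day 0 replicate 3 and stayed at 7 without the day 20 library 2_3. Of all genes, 3497, 3128 and 8993 passed under these settings, against 6027 in the main test. Without 2_3 the log2 fold changes of these 7 were 1.55 (ACADVL), 1.64 (HADHB), 2.58 (CPT1A), 2.59 (PPARA), 3.57 (FABP3), 3.88 (CD36) and 4.25 (PPARGC1A).

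**Figure D1:**
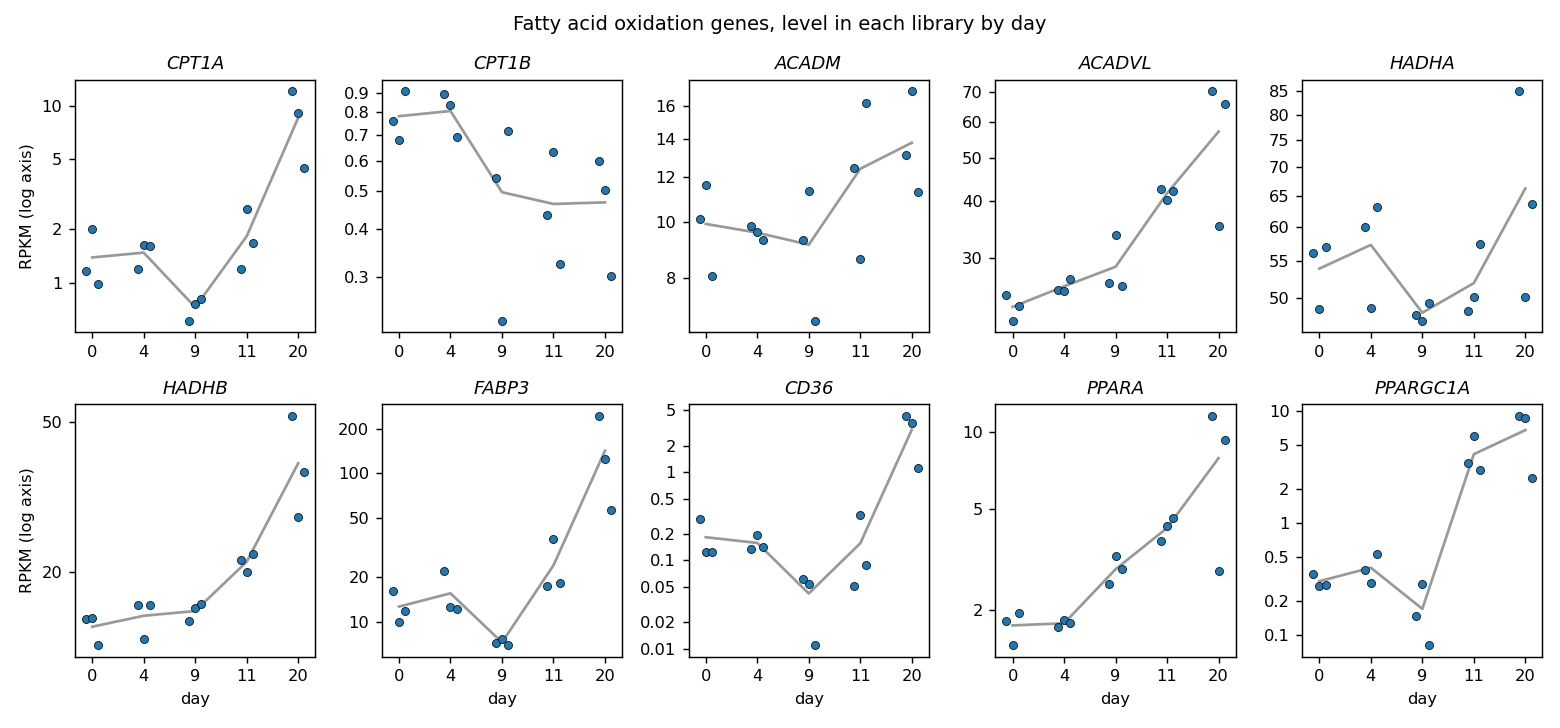
Level of each gene (RPKM, log axis, a separate scale per panel) against day of differentiation (evenly spaced positions). Points are single libraries (3 per day) and the line joins the means of the days. The means of CPT1A, FABP3, CD36 and PPARGC1A dip on day 9 and are highest on day 20, ACADVL, HADHB and PPARA climb from day to day in their means, and the replicates of ACADM, HADHA and CPT1B overlap between days that are neighbours in the order of their means.

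CPT1A encodes the liver type and CPT1B the muscle type of the enzyme that controls the entry of long-chain acyl groups into mitochondria. CPT1A (ENSG00000110090) lies on chromosome 11 of GRCh38 from 68754620 to 68844410 on the minus strand. In RPKM it stood at 1.16, 2.02 and 0.980 in day 0 replicates 1, 2 and 3, at 1.19, 1.63 and 1.61 in day 4 replicates 1, 2 and 5, and at 0.609, 0.758 and 0.808 in the day 9 replicates labelled 2, 6_1 and without a number. It then stood at 1.19, 2.62 and 1.67 RPKM in day 11 replicates 2, 5 and 6 and at 12.1, 9.13 and 4.45 RPKM in day 20 replicates 2, 2_3 and 6_1. Every day 9 library was below every library of the other days, and every day 20 library was above them all. The level fell 1.95-fold from day 4 to day 9 (log2 fold change −0.96, SE 0.20, adjusted p = 0.00478). From day 11 to day 20 the log2 fold change was 2.26 (SE 0.45, adjusted p = 0.0526 in edgeR), and without the day 20 library 6_1 it was 2.55 and passed the test (adjusted p = 0.0341 in edgeR). From day 0 to day 20 the log2 fold change was 2.67 (SE 0.45, adjusted p = 0.00418), and it passed under all 13 alternatives.

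CPT1B (ENSG00000205560), on chromosome 22 from 50568861 to 50578465 on the minus strand, was the lowest of the enzymes on every day, with day means between 0.464 and 0.807 RPKM. It stood at 0.763, 0.677 and 0.908 RPKM in the day 0 replicates and at 0.598, 0.505 and 0.303 RPKM in day 20 replicates 2, 2_3 and 6_1. The day 20 values all lay below those of day 0, but the difference did not pass the test (log2 fold change −0.69, SE 0.49, adjusted p = 0.334). Its 21 to 109 counts per library limit the precision, and its 11.0 reads per kb in library 2_3 equalled the median of the 175 nearly uncounted genes there. The 9 other genes lay 5.61 (PPARA) to 247.7 (FABP3) times above that median in this library. Exons of CPT1B overlap those of the read-through gene CHKB-CPT1B on the same strand, so reads of that transcript may be shared with it.

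The ratio of CPT1B to CPT1A, in counts per kilobase, was 0.659, 0.335 and 0.927 in the day 0 replicates and 0.0496, 0.0553 and 0.0680 in day 20 replicates 2, 2_3 and 6_1. The mean log2 ratio was 3.37 lower on day 20, with no overlap between the days (difference −3.37, p = 0.1 in an exact permutation test, two-sided, where no lower p is possible with 3 against 3). Among all 3 CPT1 genes, CPT1C, the brain type, which lies in the endoplasmic reticulum and has little activity in the shuttle, held 85.5% to 91.2% of the counts per kilobase on day 0 and 27.2% to 59.1% on day 20. CPT1A held 4.73% to 10.8% on day 0, 12.7% to 26.0% on day 11 and 69.4%, 63.2% and 38.3% in day 20 replicates 2, 2_3 and 6_1. CPT1B never held more than 6.47%, as counted with the exon overlap described above.

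**Figure D2:**
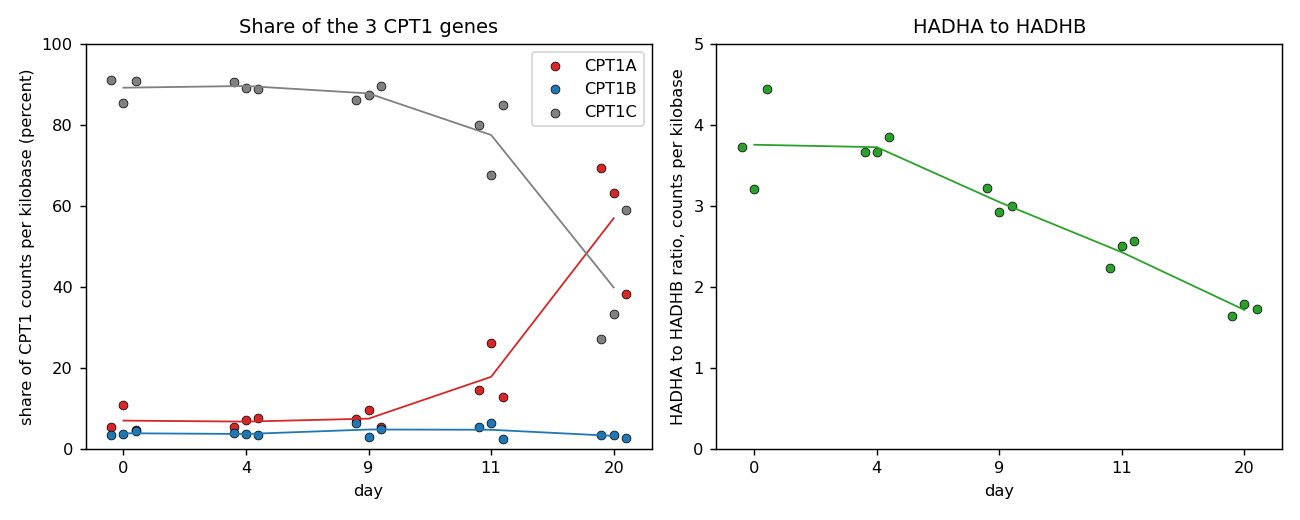
Left, share of counts per kilobase (percent) held by CPT1A, CPT1B and CPT1C among the 3 CPT1 genes, by day. Right, ratio of HADHA to HADHB in counts per kilobase, by day. Points are single libraries and lines join the day means (arithmetic on the left, geometric on the right). CPT1A passes CPT1C in the day 20 libraries 2 and 2_3 but not in 6_1, and the HADHA to HADHB ratio declines from 3.20 to 4.44 on day 0 to 1.63 to 1.79 on day 20.

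Of the beta-oxidation enzymes, ACADVL and HADHB rose and ACADM and HADHA did not pass the test. ACADVL (ENSG00000072778), the dehydrogenase for very long chains on chromosome 17 (7217125 to 7225266, plus strand), stood at 24.8, 21.7 and 23.4 RPKM in the day 0 replicates, between 25.3 and 26.9 RPKM on day 4, and at 26.4, 33.6 and 25.9 RPKM on day 9. It reached 42.6, 40.2 and 42.3 RPKM on day 11 and 70.3, 35.4 and 65.9 RPKM in day 20 replicates 2, 2_3 and 6_1. Day 11 lay above all earlier days without overlap, whereas library 2_3 pulled the day 20 range below that of day 11. The log2 fold change was 0.53 from day 9 to day 11 (SE 0.15, adjusted p = 0.132) and 1.32 from day 0 to day 20 (SE 0.31, adjusted p = 0.0160). The latter call was lost without day 0 replicate 1, 2 or 3 or day 20 replicate 6_1 (adjusted p 0.0580 to 0.133 in edgeR) and when low counts were not filtered (adjusted p = 0.142 in edgeR). ACADM (ENSG00000117054), the medium-chain dehydrogenase on chromosome 1 (75724431 to 75787575, plus strand), had day means between 9.14 and 13.8 RPKM and overlapped between all neighbouring days in their order. Its log2 fold change from day 0 to day 20 was 0.53 (SE 0.28, adjusted p = 0.196). Exons of ACADM overlap those of RABGGTB on the same strand and of the pseudogene DLSTP1 on the opposite strand, and those of ACADVL overlap DLG4 on the opposite strand. Whether the counting used the strand of the stranded libraries is not stated in the sources used here.

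HADHA (ENSG00000084754) and HADHB (ENSG00000138029) encode the alpha and beta subunits of the trifunctional protein and lie head to head on chromosome 2, HADHA from 26190635 to 26244672 on the minus strand and HADHB from 26243170 to 26290465 on the plus strand. HADHA was the most abundant of the 10 genes up to day 11, with 56.1, 48.6 and 56.9 RPKM in the day 0 replicates and 48.3, 50.1 and 57.3 RPKM in the day 11 replicates. On day 20 it stood at 85.1, 50.0 and 63.6 RPKM in replicates 2, 2_3 and 6_1, a range that overlapped that of day 0 (log2 fold change 0.33, SE 0.28, adjusted p = 0.427). HADHB stood at 15.1, 15.2 and 12.8 RPKM on day 0, at 21.6, 20.0 and 22.4 RPKM on day 11 and at 52.0, 28.0 and 36.8 RPKM on day 20, with no overlap among these days. Its log2 fold change was 0.42 from day 9 to day 11 (SE 0.12, adjusted p = 0.130), 0.89 from day 11 to day 20 (SE 0.28, adjusted p = 0.164) and 1.48 from day 0 to day 20 (SE 0.29, adjusted p = 0.00723). The last call was lost without day 0 replicate 1 (adjusted p = 0.0578 in edgeR) or 3 (adjusted p = 0.0985 in edgeR) and when low counts were not filtered (adjusted p = 0.0927 in edgeR).

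The ratio of HADHA to HADHB in counts per kilobase, which no scaling between libraries touches, was 3.20 to 4.44 on day 0, 3.66 to 3.85 on day 4, 2.93 to 3.23 on day 9, 2.23 to 2.56 on day 11 and 1.63 to 1.79 on day 20. From day 4 on, the ranges of successive days did not overlap. This ratio was singled out after its values were seen and is given without a test. On GRCh38.p14, 306 bases lie between the RefSeq starts of the pair (26244632 for HADHA and 26244939 for HADHB), and 194 of these bases lie within the 250 bases upstream of both starts. They are shown because the members of the pair moved unequally and have this stretch in common, and its part in the ratio was not tested. By the GENCODE coordinates given above the 2 genes overlap, so the gap holds for these RefSeq starts only. The stretch lies at chr2:26244689-26244882 and is printed 5′ to 3′ on the strand of HADHB. Capitals mark the only match to any of 7 searched motifs, a GGGCGG box read on the opposite strand, which begins at base 187.
HADHA and HADHB: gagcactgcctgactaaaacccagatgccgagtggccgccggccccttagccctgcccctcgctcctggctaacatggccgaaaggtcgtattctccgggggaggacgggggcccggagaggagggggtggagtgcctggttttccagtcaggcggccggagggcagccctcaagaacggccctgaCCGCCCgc

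FABP3 (ENSG00000121769), the heart-type fatty acid binding protein on chromosome 1 (31365253 to 31376850, minus strand), reached the highest level of the 10 genes. It stood at 16.2, 10.0 and 11.9 RPKM in the day 0 replicates, at 22.0, 12.6 and 12.2 RPKM in those of day 4 and at 7.18, 7.71 and 6.97 RPKM on day 9. It then stood at 17.6, 36.4 and 18.2 RPKM in day 11 replicates 2, 5 and 6 and at 243.5, 125.4 and 56.7 RPKM in day 20 replicates 2, 2_3 and 6_1. Day 9 lay below all other days and day 20 above them, each without overlap, and the day 20 libraries spanned a wide range. The level fell from day 4 to day 9 (log2 fold change −1.04, SE 0.24, adjusted p = 0.00690) and rose 3.27-fold from day 9 to day 11 (log2 fold change 1.71, SE 0.31, adjusted p = 0.0375). The rise was lost without any of the day 9 replicates or without day 11 replicate 2 or 6 (adjusted p 0.0520 to 0.180 in edgeR), and also with upper-quartile normalization, a filter at a mean of 1 CPM or all 15 libraries in one fit (0.0512 to 0.0674). Without any of these 5 replicates, 0 to 573 of all genes passed, against 495 in the main test. From day 11 to day 20 the log2 fold change was 2.59 (SE 0.56, adjusted p = 0.0657), and 2.95 without the day 20 library 6_1 (adjusted p = 0.0343 in edgeR). From day 0 to day 20 it was 3.52 (SE 0.54, adjusted p = 0.00295) and passed under all 13 alternatives.

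CD36 (ENSG00000135218), the fatty acid translocase on chromosome 7 (80369575 to 80679277, plus strand), was the lowest of the 10 genes up to day 11. It had 83, 38 and 15 counts in day 0 replicates 1, 2 and 3, 3 to 12 counts on day 9 and 12, 68 and 21 counts in day 11 replicates 2, 5 and 6. On day 20 it had 1057, 794 and 191 counts in replicates 2, 2_3 and 6_1, or 4.34, 3.61 and 1.12 RPKM, above every earlier library (0.0109 to 0.328 RPKM). The log2 fold change was −1.91 from day 4 to day 9 (SE 0.50, adjusted p = 0.0126), a call lost without day 4 replicate 2 (adjusted p = 0.0539 in edgeR). It was 1.91 from day 9 to day 11 with overlapping replicates (SE 0.85, adjusted p = 0.314). From day 11 to day 20 it was 4.31 (SE 0.80, adjusted p = 0.0465), a call that held under 4 of 15 alternatives. The call was lost without any of the day 11 replicates or without day 20 replicate 2 or 2_3 (adjusted p 0.0602 to 0.204 in edgeR). Without any of the day 11 replicates, 0 to 1 of all genes passed. It was also lost with upper-quartile normalization, library size alone, a filter at a mean of 1 CPM, limma, or the plate number or lane as a block. From day 0 to day 20 the log2 fold change was 4.07 (SE 0.63, adjusted p = 0.00304) and passed under all 13 alternatives. CD36 is also made by endothelial cells, adipocytes and macrophages. In day 20 replicates 2, 2_3 and 6_1, 6 endothelial markers summed to 28.4, 14.5 and 57.2 RPKM, lowest where CD36 was intermediate and highest where it was lowest. In day 11 replicates 2, 5 and 6 they summed to 48.0, 81.4 and 40.1 RPKM, highest in replicate 5, as was CD36. The same sum was already 43.3 to 53.6 RPKM on day 0. Most of it on day 20 was TEK (3.03 to 37.2 RPKM) and EGFL7 (7.23 to 20.0 RPKM), beside 0.440 to 2.07 RPKM for PECAM1, CDH5, EMCN and TIE1. On day 20, 4 adipocyte markers summed to at most 3.10 RPKM and 4 macrophage markers to at most 2.81 RPKM, both highest in library 2_3. PTPRC, the pan-leukocyte marker, was at 0 in every day 11 library and had 2 to 134 counts in those of day 20, and CSF1R, a macrophage receptor, had 20 to 32 and 23 to 138 counts. In library 2_3 the nearly uncounted genes had a median of 11.0 reads per kb, and CPT1B at that level stood at 0.505 RPKM. The highest day 20 values of the single adipocyte and macrophage markers ran from 0.259 (ADIPOQ) to 1.23 RPKM (CSF1R). The part of background reads in these markers was not tested. The part of endothelial cells, adipocytes and macrophages in the level of CD36 was not tested either.

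FABP3 and CPT1A both rose over the course and each had a single RefSeq start in the table used here, so the 250 bases before these starts are shown. The FABP3 stretch lies at chr1:31373077-31373326 and the CPT1A stretch at chr11:68844278-68844527 on GRCh38.p14, both printed 5′ to 3′ on the gene's own minus strand. Their shares of G and C were 69.2% and 44.4%, against a median of 58.0% over 35116 such stretches of all genes. Neither holds a match to any of the motifs searched, so no base is in capitals.
FABP3: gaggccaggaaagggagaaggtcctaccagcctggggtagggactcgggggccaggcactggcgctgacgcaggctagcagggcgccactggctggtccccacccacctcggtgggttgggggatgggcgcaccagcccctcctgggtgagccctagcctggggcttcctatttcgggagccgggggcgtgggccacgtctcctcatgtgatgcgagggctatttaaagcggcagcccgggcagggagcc
CPT1A: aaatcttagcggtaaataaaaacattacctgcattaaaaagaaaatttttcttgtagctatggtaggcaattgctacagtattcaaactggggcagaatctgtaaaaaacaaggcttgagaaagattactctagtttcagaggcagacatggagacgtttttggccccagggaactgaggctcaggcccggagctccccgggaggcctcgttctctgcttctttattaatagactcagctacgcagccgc

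The motifs were searched on both strands of these 250 bases in 17 stretches of 9 of the genes (none was listed for CPT1B). They were the PPAR and RXR direct repeat with a single base between its repeats (in 0.0171% of all stretches), its repeat unit AGGTCA (12.1%), the estrogen-related receptor motif TCAAGGTCA (0.319%), which contains that unit, the E-box CACGTG (6.35%), GGGCGG (42.6%), the TATA box TATAAA (10.7%) and CCAAT (32.0%). None of the 17 stretches held the unit or either motif built on it. CACGTG was found in 1 of the stretches of PPARGC1A, GGGCGG in stretches of ACADM, ACADVL, HADHA, HADHB and PPARA, TATAAA in those of ACADVL and CD36, and CCAAT in those of CD36 and PPARA. These matches describe the letters of short windows only.

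PPARA (ENSG00000186951), a nuclear receptor that binds fatty acids, lies on chromosome 22 from 46150521 to 46243755 on the plus strand. It stood at 1.82, 1.46 and 1.96 RPKM in the day 0 replicates, at 1.73, 1.83 and 1.78 RPKM on day 4, at 2.54, 3.26 and 2.89 RPKM on day 9 and at 3.76, 4.28 and 4.59 RPKM on day 11. It was the only one of the 10 genes that rose from day 4 to day 9 (log2 fold change 0.76, SE 0.13, adjusted p = 0.00145), and days 4, 9 and 11 did not overlap. The day 20 libraries 2 and 6_1 stood at 11.6 and 9.30 RPKM and library 2_3 at 2.84 RPKM, within the range of day 9. The log2 fold change was 0.52 from day 9 to day 11 (SE 0.15, adjusted p = 0.123) and 0.92 from day 11 to day 20 (SE 0.45, adjusted p = 0.357). Without library 2_3 the latter was 1.31 and passed the test (adjusted p = 0.0310 in edgeR). From day 0 to day 20 it was 2.20 (SE 0.47, adjusted p = 0.0112), a call lost without day 0 replicate 1, 2 or 3 (adjusted p 0.0532 to 0.0737 in edgeR).

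PPARGC1A (ENSG00000109819), which encodes the coactivator PGC-1alpha, lies on chromosome 4 from 23755041 to 23904089 on the minus strand. It stood at 0.351, 0.277 and 0.280 RPKM in the day 0 replicates, at 0.383, 0.291 and 0.525 RPKM on day 4 and at 0.147, 0.287 and 0.0813 RPKM in the day 9 replicates labelled 2, 6_1 and without a number. On day 11 it stood at 3.42, 5.92 and 2.99 RPKM in replicates 2, 5 and 6, each above every earlier library. The log2 fold change from day 9 to day 11 was 4.57 (SE 0.51, adjusted p = 0.0147), the 58th highest of the 20679 genes tested. This call held under 14 of 15 alternatives and was lost without day 9 replicate 2 (adjusted p = 0.107 in edgeR), where 0 of all genes passed. From day 4 to day 9 the log2 fold change was −1.17 (SE 0.44, adjusted p = 0.0568). On day 20 the gene stood at 9.02, 8.68 and 2.5 RPKM in replicates 2, 2_3 and 6_1, a range that included that of day 11 (log2 fold change 0.75, SE 0.50, adjusted p = 0.510). From day 0 to day 20 the log2 fold change was 4.52 (SE 0.54, adjusted p = 0.00107). The related coactivator PPARGC1B stood at 1.52 to 2.27 RPKM on day 0, 0.197 to 0.534 RPKM on day 11 and 1.14 to 2.92 RPKM on day 20, so that PPARGC1A was the lower of the pair in every library of days 0, 4 and 9 and the higher in every library of days 11 and 20.

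By interval, none of the 10 genes passed the test between day 0 and day 4, nor did any of the 20964 genes tested (0%). At an unadjusted p under 0.05, edgeR gave 741 of all genes and none of the 10, and DESeq2 called no gene and gave 703 at an unadjusted p under 0.05. The log2 fold changes of the 10 genes lay between −0.27 (CD36) and 0.38 (PPARGC1A). By the methods of the paper, CHIR99021 was added on day 4, which ends this interval, though descriptions by the submitters differ. Between day 4 and day 9, 1 of the 10 rose (PPARA) and 3 fell (CPT1A, FABP3 and CD36), a share below the 49.0% of all 21252 genes that passed. Their median log2 fold change was −0.42, against 0.01 over all genes. CPT1B did not pass in this interval (log2 fold change −0.63, SE 0.37, adjusted p = 0.189), but did without the day 9 replicate that has no number (−1.01, adjusted p = 0.0451 in edgeR). With all 15 libraries in one fit none of the 10 passed, although 6209 genes did.

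Between day 9 and day 11, PPARGC1A and FABP3 rose and none fell, where 2.39% of all genes passed, and the median log2 fold change of the 10 was 0.52 against 0.00 over all genes. CPT1A had a log2 fold change of 1.31 in that interval (SE 0.32, adjusted p = 0.0827), with every day 11 library above every day 9 library. The number of the 10 that passed was 4 with DESeq2 (1671 of all genes, against 495 in the main test). It was 3 with the plate number as a replicate block (1971 of all genes) and 0 without day 9 replicate 2 (0 of all genes). It was 1 without either of the other day 9 replicates or without day 11 replicate 2 or 6 (37 to 573 of all genes). Between day 11 and day 20, CD36 alone passed, where 1.55% of all genes did, and the median log2 fold change was 0.82 against 0.07. That number was 4 with all 15 libraries in one fit (3132 of all genes, against 332 in the main test). It was 3 with DESeq2 (1864 of all genes) or without the day 20 library 6_1 (369). It was 0 with the plate number as a replicate block (3 of all genes), without day 20 replicate 2 (94) or without any of the day 11 replicates (0 to 1). Without 2_3 it was 1, which was PPARA and not CD36. ACADVL had a log2 fold change of 0.48 in this last interval (SE 0.32, adjusted p = 0.505).

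**Figure D3:**
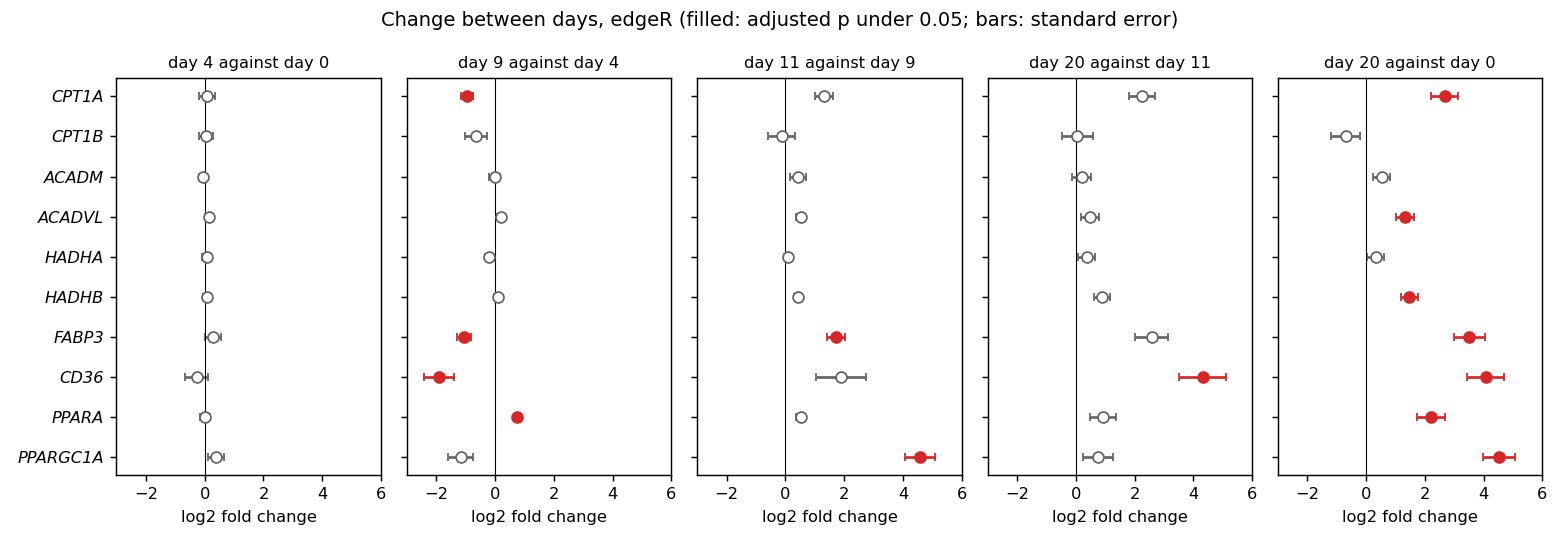
Log2 fold change of each gene in 5 comparisons of days (horizontal axis, one panel per comparison), with the standard error as a bar. Filled points had an adjusted p under 0.05 in edgeR. No point is filled for day 4 against day 0, 4 are for day 9 against day 4, 2 for day 11 against day 9, 1 for day 20 against day 11 and 7 for day 20 against day 0.

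Changes could also be read within a sequencing lane, since lanes 1, 2 and 5 had a library of each of days 4, 9, 11 and 20. In log2 CPM, PPARGC1A was 5.29, 3.36 and 5.33 higher on day 11 than on day 9 in lanes 1, 2 and 5, and FABP3 was 2.33, 1.23 and 1.33 higher. From day 11 to day 20, CPT1A was 0.76, 2.44 and 3.34 higher, FABP3 0.64, 2.78 and 3.79 higher and CD36 1.75, 5.27 and 6.28 higher in the same lanes. PPARGC1A differed by −1.24, 1.54 and 1.40 and PPARA by 1.12, −0.69 and 1.62 over that interval, so that the direction of both differed between these pairs of libraries. With a single library of each day per lane, lane and replicate cannot be told apart here. Day 0 and day 20 shared only lane 1, with a single library each, and lane and day cannot be told apart for that comparison.

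Within day 20, 9 of the genes followed 1 of 2 orders, and ACADM was highest in library 2_3. CPT1A, CPT1B, FABP3, CD36 and PPARGC1A were highest in replicate 2, intermediate in 2_3 and lowest in 6_1, the same order as the summed cardiomyocyte markers (5700, 3908 and 1308 RPKM). The place of CPT1B is uncertain, since its 11.0 reads per kb in 2_3 equalled the median of the nearly uncounted genes there. ACADVL, HADHB, HADHA and PPARA were highest in replicate 2, intermediate in 6_1 and lowest in 2_3. The endoderm markers were at 5901, 163.8 and 6486 RPKM in replicates 2, 2_3 and 6_1, and the mesenchymal markers at 643.1, 200.2 and 5724 RPKM, both lowest in 2_3. On day 11, replicate 5 had the highest CPT1A, FABP3, CD36 and PPARGC1A of the day and the highest cardiomyocyte markers (5257 RPKM, against 1494 in replicate 2 and 1010 in replicate 6), and also the lowest endoderm markers (251.5 RPKM, against 554.6 and 889.6 RPKM). None of the 8 endoderm, 6 cardiomyocyte or 5 mesenchymal markers was at 0 on either day. The part of these markers in the levels of the 10 genes was not tested. The 4 markers of skeletal muscle, where FABP3 and CPT1B are also made, summed to 35.7, 9.68 and 8.46 RPKM in day 20 replicates 2, 2_3 and 6_1, highest where FABP3 and CPT1B were highest. Most of this was ACTN3, at 472 to 2995 counts per day 20 library, beside at most 59 counts of MYOD1, 33 of MYOG and 17 of MYF6. The sum of these 4 markers was already 5.81 to 22.9 RPKM on day 0 and 5.73 to 22.5 RPKM on day 9. The part of skeletal muscle cells in the levels of FABP3 and CPT1B was not tested.

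**Figure D4:**
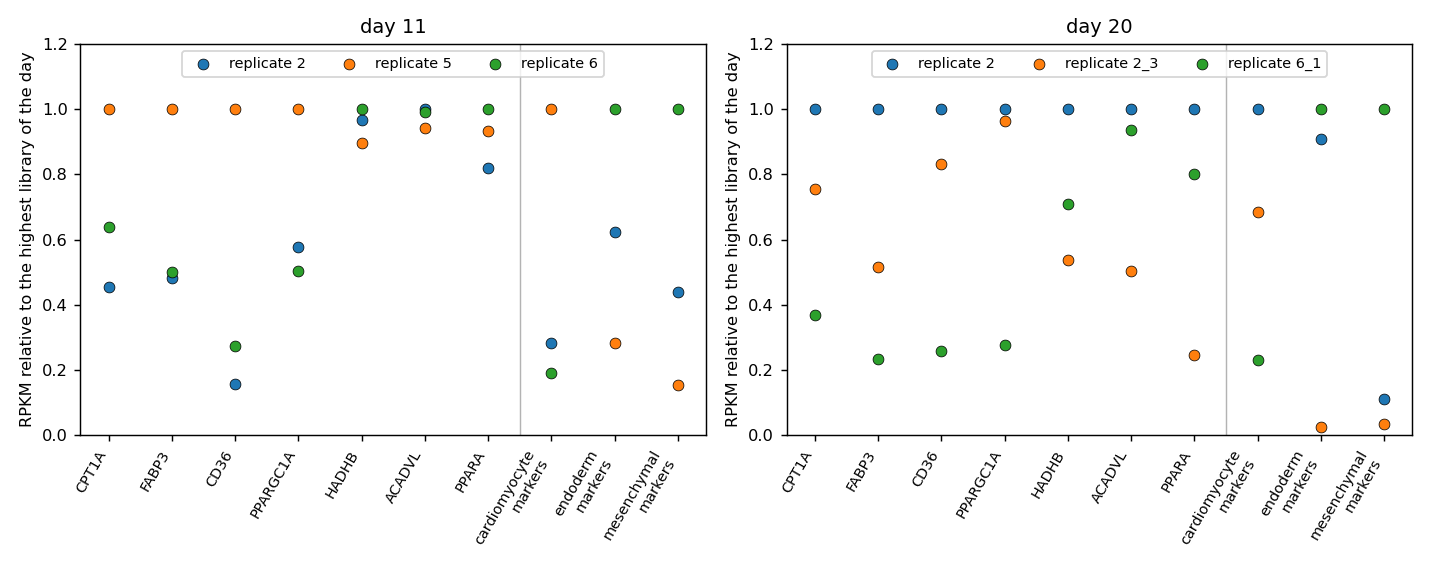
Level in each library of day 11 (left) and day 20 (right) relative to the highest library of that day, for 7 of the genes and for the summed levels of 3 marker lists (right of the grey line). Colours mark replicates. On day 20, CPT1A, FABP3, CD36 and PPARGC1A share the order of the cardiomyocyte markers, while ACADVL, HADHB and PPARA are lowest in library 2_3, as are the endoderm markers.

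Across the 15 libraries, the patterns of the genes were compared by Pearson's r of log2 CPM, as a description over libraries that share the same 5 days. Among the pairs of the 10 genes, r was highest for ACADVL with PPARA (0.97) and CPT1A with FABP3 (0.94), and lowest for CPT1B with ACADVL (−0.58). Out of 18290 genes with a mean of at least 1 CPM, those most like CPT1A were PDGFD (0.98), SLC25A12 (0.97), a mitochondrial aspartate and glutamate carrier, and ADPRHL1 (0.97). Those most like FABP3 were MYO18A (0.98), the sarcomere formin FHOD3 (0.98) and HSPB8 (0.97), and those most like PPARGC1A were MYO18B (0.98), the sodium-calcium exchanger SLC8A1 (0.98) and ASB2 (0.97). CD36 was most like FGF1, RBFOX1 and FBXO40 (each 0.96). PPARA was most like VEGFB, TYK2 and GBF1 (each 0.98), and ACADVL most like TYK2 (0.98), PPARA (0.97) and VEGFB (0.96). HADHB was most like BMT2, DUSP3 and SCP2 (each 0.96), HADHA most like MARCHF2, PYGL and SMAP1 (0.92 to 0.93), ACADM most like C12orf4, HMGN3 and SLA (0.90 to 0.91) and CPT1B most like GDF11, TMEM121B and DNAJC16 (0.88 to 0.93).

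A wider list of 89 genes of fatty acid metabolism, which leaves out the 10, was read beside them. From day 0 to day 20, 33 of the 87 genes tested rose and 5 fell, while 49 did not pass, where 27.4% of all genes passed in either direction. Their median log2 fold change was 0.75 against 0.11 over all genes. In the carnitine shuttle, SLC25A20, which exchanges acylcarnitine across the inner membrane (log2 fold change 2.23, SE 0.33, adjusted p = 0.00256 in edgeR), CRAT (2.14) and the carnitine transporter SLC22A5 (1.30) rose, CPT1C fell (−1.70) and CPT2 did not pass. Of 17 further genes of mitochondrial beta-oxidation, 8 rose and none fell, among them the short-chain dehydrogenase ACADS (2.38) and the electron transfer flavoprotein genes ETFA (1.41) and ETFB (1.66). Of 11 peroxisomal genes, 6 rose and none fell, and of 7 acyl-CoA synthetases, ACSL1 (3.00) and ACSL5 (3.79) rose. In the control of malonyl-CoA, the inhibitor of CPT1, ACACB, the carboxylase at the mitochondrial membrane, rose (1.68), ACACA, the cytosolic carboxylase, fell (−1.36) and MLYCD did not pass.

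Among 15 further uptake and binding genes tested, 3 rose (FABP1, FABP2 and SLC27A6) and 1 fell (FABP7), where 27.4% of all genes passed. Among 19 further regulators, 7 rose and 2 fell, and among 10 tested PPAR target and storage genes, 3 rose, among them PDK4 (5.51) and ACOT2 (1.34). For the uptake and binding group and the PPAR target group, the share that passed was near that of all genes. The largest rises by the naming rule included RXRG, a partner receptor of PPARs, FABP1 and FABP2, the liver and intestinal binding proteins, and PPARG (log2 fold change 5.78). RXRG had 1, 0 and 0 counts in the day 0 replicates and 2351, 408 and 536 counts in day 20 replicates 2, 2_3 and 6_1. FABP1 had 3, 2 and 0 counts on day 0 and 166, 61 and 888 on day 20. FABP2 had 3, 1 and 0 counts on day 0 and 164, 283 and 91 on day 20. On day 20 FABP1 was lowest in library 2_3, as were the endoderm markers, whereas FABP2 was highest there, and the part of those markers in this was not tested. The largest falls were in FABP7, the brain type (−3.0), the deacetylase SIRT1 (−2.47), CPT1C, ACACA and TFAM, which maintains mitochondrial DNA (−1.32).

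In the separate intervals, none of the 79 genes of the wider list tested passed between day 0 and day 4. Between day 4 and day 9, 17 of 81 rose and 27 fell, where 49.0% of all genes passed in either direction, with PPARG (log2 fold change 4.39) among the largest rises and the acetyl-CoA synthetase ACSS1 (−3.66) the largest fall. All 8 uptake and binding genes and all 3 malonyl-CoA genes that passed in this interval fell. Between day 9 and day 11, RXRG, FABP2 and CRAT rose and FABP7 and KLF15 fell, out of 83 genes tested, where 2.39% of all genes passed. Between day 11 and day 20, CAV1, the caveolin that helps hold CD36 at the membrane, rose (log2 fold change 2.89, SE 0.38, adjusted p = 0.0208 in edgeR), out of 85 genes tested, where 1.55% of all genes passed.

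**Figure D5:**
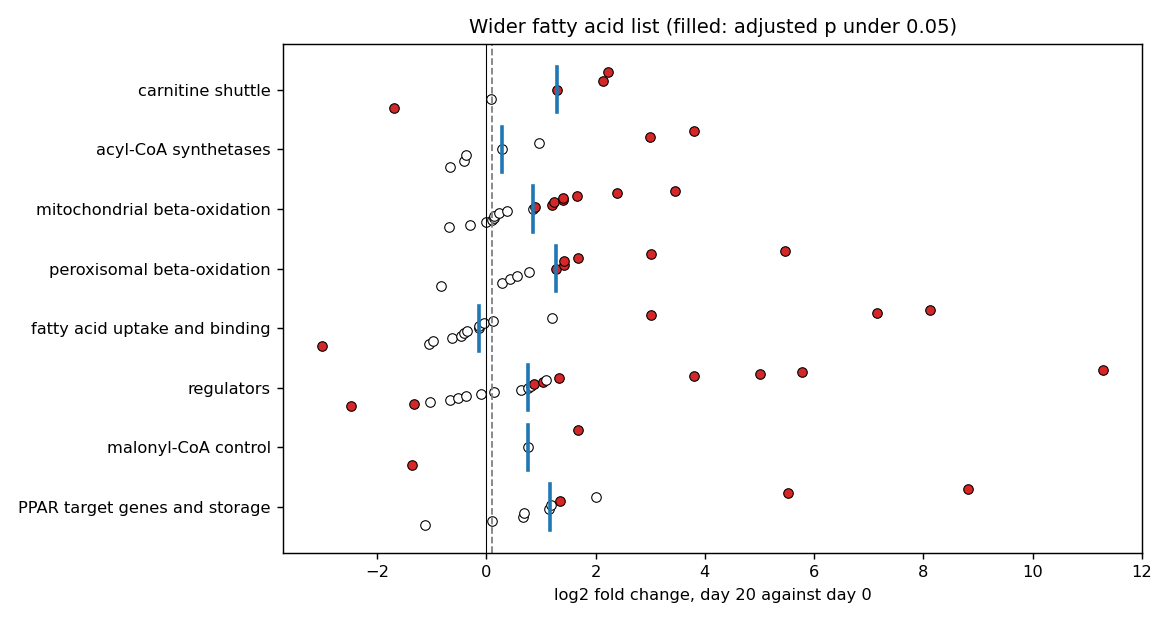
Log2 fold change from day 0 to day 20 (horizontal axis) for the genes of the wider list tested, by group (rows). Filled points had an adjusted p under 0.05 in edgeR, blue bars are group medians and the dashed line is the median of all genes tested (0.11). In mitochondrial and peroxisomal beta-oxidation all filled points lie to the right, and the median of fatty acid uptake and binding (−0.14) lies left of the dashed line.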

How the data were processed

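Bulk RNA-seq of H1 cells was analysed for days 0, 4, 9, 11 and 20 (3 libraries per day, grouped by the labels). The single-cell, protein and animal data were not analysed here. The labels give day 9 where the paper's methods list day 7. Per the labels and methods, the authors aligned paired-end reads of stranded total RNA to GRCh38 (hg38) with STAR 2.5.2b, removed ribosomal and mitochondrial genes, and deposited raw counts per gene from featureCounts 1.5.1. The authors also deposited TPM, computed from these counts. From the deposited sample table came the RNA integrity score, the fraction of reads mapped uniquely (not used for any result) and the sequencing lane. Plate numbers come from the sample names. Day 20 replicates 2 and 2_3 share plate 2, and whether they were separate differentiations is not stated.

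Tests used edgeR 4.0.16 under R 4.3.3 (TMM scaling, robust quasi-likelihood F test, two-sided), after filterByExpr at a count of 10 and a total of 15, on the 6 libraries of 2 days, or on all 15 for any difference among days, and the p-values of all tested genes were adjusted by Benjamini-Hochberg and called under 0.05. All adjusted p-values in the text come from edgeR unless another tool is named. The standard error is the log2 fold change divided by the square root of F. RPKM used TMM over the 15 libraries and the gene length implied by count and TPM, which was within 10% of the GENCODE v44 exon length for 7 of the 10 genes (not for ACADM, HADHA and FABP3). TPM was not used for levels, because 1 gene of very short implied length takes a large share of it in some libraries. Promoter stretches are from RefSeq on GRCh38.p14, with 9 of the 10 genes matched. The scripts were tested on simulated data.

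Alternative settings were library size alone, upper-quartile normalization, DESeq2 1.42.0, no filter, a filter at a mean of 1 CPM, limma 3.58.1 on log2(TPM + 1) of the deposited values, all 15 libraries in one fit, the plate number or the lane as a block, and each replicate left out in turn. The 10 genes, the wider list of 89 genes and the marker lists were chosen with earlier results of these data known. Named from the wider list were the 5 largest rises and 5 largest falls (day 20 against day 0) of the called genes with no overlap between replicates. One of these genes is not reported here. The other genes of that list named in the text were chosen after their values were seen.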

Additional observations from a re-analysis of the deposited data

How the results depend on the processing

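Of the changes given for single genes among the 10, the direction was kept under every alternative except for CD36 from day 0 to day 4, which ranged from −0.55 to 0.33 with a replicate left out and was 0.33 without day 0 replicate 1. Among the counts of the 10 genes past the threshold, that for day 4 to day 9 went from 4 to 0 with all 15 libraries in one fit. For day 9 to day 11 it was 2, and 4 with DESeq2, 1 with upper-quartile normalization, 1 with the filter at 1 CPM, 1 with all libraries in one fit and 0 to 2 with a replicate left out. For day 11 to day 20 it was 1, and 3 with DESeq2, 4 with all libraries in one fit, 0 with upper-quartile normalization, library size alone, the filter at 1 CPM, limma, the plate number as a replicate block or the lane as a block, and 0 to 3 with a replicate left out. For day 0 to day 20 it was 7, and 5 without the filter and 4 to 7 with a replicate left out. For any difference among days it was 7, and 7 to 8 with a replicate left out. The cause of these changes was not tested.

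The number of all genes past the threshold ranged over the alternatives from 0 to 64 for day 4 against day 0 (64 without the filter), from 6209 to 11415 for day 9 against day 4, from 0 to 1971 for day 11 against day 9, from 0 to 3132 for day 20 against day 11 and from 3128 to 10785 for day 20 against day 0. The median log2 fold change of all genes from day 0 to day 20 was 0.11, and 0.23 with library size alone, 0.20 with upper-quartile normalization, 0.25 with limma and 0.91 without the filter, and changes under those settings are to be read against these medians.

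With the plate number as a replicate block, 3 of the 10 genes passed for day 9 to day 11, where 1971 of all genes did. For day 11 to day 20, 0 of the 10 passed, where 3 of all genes did. In both comparisons only plates 2 and 6 had libraries of both days. Libraries of other plates or without a number therefore did not inform the change. Libraries of one plate deviated together with r of 0.14 (plate 2) and 0.37 (plate 6) between days 9 and 11, and with r of −0.18 and 0.01 (plate 2) and 0.38 (plate 6) between days 11 and 20, so that these samples are only known to share a number. No paired fit was possible for the other comparisons, because day 0 has no plate number and days 4 and 9 share only plate 2.

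The log2 ratio of CPT1B to CPT1A differed between day 20 and day 0 by −3.77 to −3.04 with a replicate left out, and the same in TPM, which uses the same gene lengths. Few counts limit CPT1B and, up to day 11, CD36.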
